A study of Homo sapiens with 4 samples.

Results

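Cyclins and cyclin-dependent kinases (CDKs) move a cell through its division cycle. A D-type cyclin binds CDK4 or CDK6 in G1, the phase before DNA is copied, and these pairs add phosphate to the RB protein, which frees E2F transcription factors. E-type cyclins with CDK2 start S phase, cyclin A2 carries it forward and cyclin B1 with CDK1 drives entry into mitosis. In bladder carcinoma, the G1 cyclins and the RB pathway are among the most studied growth controls.

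The transcripts of 10 genes of this machinery, CCND1, CCND2, CCND3, CDK4, CDK6, CCNE1, CCNE2, CDK2, CCNA2 and CCNB1, were followed in T24 cells. They were taken by gene symbol from a table of 60623 genes, and all 10 were found. T24 is a line of human bladder carcinoma cells, grown in RPMI medium with serum. Control cells and cells overexpressing CBX7, a chromobox protein of the Polycomb repressive complex PRC1, were each represented by 2 libraries. The labels name the cell line and the overexpressed gene but neither the vector of the control cells nor the promoter that drove CBX7, and they do not say whether replicates came from separate cultures. The p-values therefore measure the spread between these libraries, which may be technical. No synchronisation is named, so each level is a mean over all cells of a culture, and a smaller share of cells in a phase cannot be told apart from less RNA per cell.

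CBX7 itself, at 10.9 and 9.67 CPM (counts scaled to library size) in control cells, reached 1774 and 1595 CPM in CBX7-overexpressing cells (log2 fold change 7.35, SE 0.18, adjusted p = 0.000584 in the quasi-likelihood test of edgeR, Benjamini-Hochberg adjusted). The libraries held between 20800910 and 25135488 estimated counts. Of 10 urothelial and epithelial markers, the uroplakins UPK1A, UPK1B, UPK2 and UPK3A and the keratins KRT20 and KRT5 had at most 3 counts in any library. KRT7, KRT8 and KRT18 lay between 853 and 1465 TPM (transcript abundance scaled by length, as deposited). The remaining marker, GATA3, a urothelial transcription factor, had 3 and 4 counts in the controls and 14 and 22 in the CBX7 libraries (adjusted p = 0.602). Of the markers of other cell types, the leukocyte genes PTPRC and CD3E had at most 1 count, but CD68 had 309 and 218 counts in the controls and 205 and 155 in the CBX7 libraries (log2 fold change -0.60, adjusted p = 0.916). The endothelial genes PECAM1 and VWF had at most 4 counts, and CDH5 had 13 and 12 counts against 3 and 7. The fibroblast genes PDGFRA and DCN had at most 10 counts, and COL1A1 had 60 and 54 counts against 87 and 106 (log2 fold change 0.71, adjusted p = 0.943). None of the 4 urothelial and epithelial genes and the 3 genes of other cell types that could be tested passed an adjusted p of 0.05 in the quasi-likelihood test of edgeR or in DESeq2's Wald test. CBX7 replicate 1 stood apart from the other libraries in a way that followed gene length. Over the 11077 genes whose mean was 100 counts or more, the log2 ratio of CBX7 replicate 1 to CBX7 replicate 2 correlated with gene length (Spearman's rho -0.70) and with GC content (0.44), and for control replicate 1 to control replicate 2 these were -0.49 and 0.37. These genes share the same 4 libraries and are not independent. For those of the 10 genes that could be tested, values are therefore also given after a correction of each library for length and GC content, and values without this library where they change a call, a sign or a size.

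T24 cells held high levels of CDK4, CCNB1 and CCND1, intermediate levels of CDK2, CCNA2 and CCND3, and low levels of CCNE2, CDK6 and CCNE1. CCND2 was near the limit of detection. Levels of different genes are compared in TPM. The deposited TPM was not a fixed multiple of counts per deposited gene length, so these scales can rank genes differently. Among the 14862 genes with enough counts to be tested, CDK4 lay at the 97.1 percentile of TPM in every library, whereas CDK6 lay between the 46.2 and 59.6 percentiles and CCNE1 between the 38.4 and 48.5 percentiles.

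**Figure D1:**
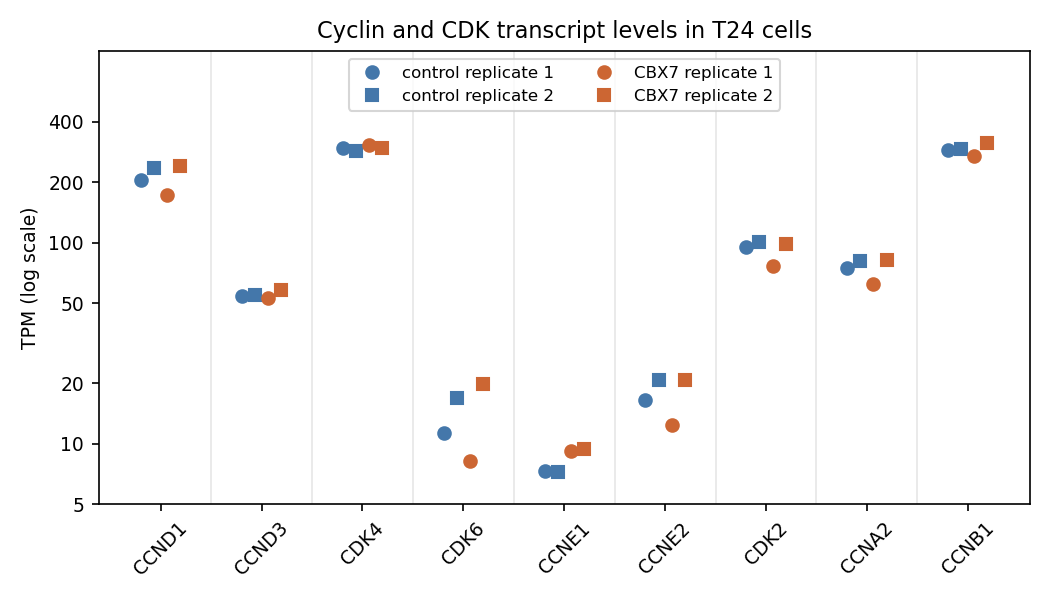
TPM (vertical axis, log scale) of 9 cyclin and CDK genes in each of the 4 libraries, with control cells in blue, CBX7-overexpressing cells in orange, circles for replicate 1 and squares for replicate 2. CDK4 lies between 286 and 305 TPM in the 4 libraries and CDK6 between 8.19 and 19.8 TPM. CCND2, at most 0.05 TPM, is not drawn.

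CCND1 encodes cyclin D1, the D-type cyclin most often amplified in carcinomas (ENSG00000110092, chromosome 11, 69641087 to 69654474, plus strand; coordinates here and below are from GENCODE 29 on GRCh38). CCND1 had 205 and 234 TPM in the controls, against 173 and 242 TPM in the CBX7 libraries. The CBX7 libraries held both the lowest and the highest value, so the groups overlapped. CCND3, encoding cyclin D3 (ENSG00000112576, chromosome 6, 41934933 to 42050357, minus strand), had 54.3 and 54.8 TPM in the controls, against 53.1 and 58.3 TPM in the CBX7 libraries. CCND2, encoding cyclin D2 (ENSG00000118971, chromosome 12, 4273772 to 4305350, plus strand), had 0 and 1 counts in the controls, against 7.03 and 0 counts in the CBX7 libraries. A library with a count of 0 allows up to 3 counts, and the highest CCND2 value was 0.280 CPM before normalisation, so CCND2 was removed by the filter on low counts and no fold is given.

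Per unit of length, CCND1 made up most of the D-type cyclin transcript. Its share of the summed TPM of CCND1, CCND2 and CCND3 was 79.0% and 81.1% in the controls, against 76.5% and 80.6% in the CBX7 libraries. The mean difference was -1.49 percentage points (CBX7 minus control), against SDs of 1.44 and 2.87 (n = 2 each), and an exact two-sided permutation test gave p = 0.667. With 2 libraries against 2, such a test cannot give a p under 0.33. After the length and GC correction the shares were 80.4% and 80.4% in the controls, against 81.8% and 81.5% in the CBX7 libraries, so the difference changed sign to 1.28 percentage points (exact permutation p = 0.33).

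CDK4, a G1 partner of the D-type cyclins (ENSG00000135446, chromosome 12, 57747727 to 57756013, minus strand), had 294 and 286 TPM in the controls, against 305 and 295 TPM in the CBX7 libraries. It was the only G1 kinase at a high level, and both CBX7 values lay above both control values by a narrow margin on this scale. CDK6, the related G1 kinase (ENSG00000105810, chromosome 7, 92604921 to 92836594, minus strand), had 11.4 and 16.8 TPM in the controls, against 8.19 and 19.8 TPM in the CBX7 libraries. The CDK6 groups overlapped completely, because the lowest and the highest of the 4 values were both from CBX7-overexpressing cells. CDK6 is 11612 bases long in the deposited table and CDK4 1865 bases.

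CDK4 exceeded CDK6 in all 4 libraries. The ratio of CDK4 to CDK6 TPM was 25.9 in control replicate 1, 17.0 in control replicate 2, 37.2 in CBX7 replicate 1 and 14.9 in CBX7 replicate 2. Both replicate 1 libraries had a higher ratio than both replicate 2 libraries, whatever their group. The geometric mean over the 4 libraries was 22.2, and the difference between groups was 0.17 on the log2 scale (CBX7 minus control), smaller than the SD of 0.43 in control cells and of 0.93 in CBX7-overexpressing cells (n = 2 each; exact two-sided permutation p = 1). Between libraries of the same replicate number the log2 difference was 0.52 for number 1 and -0.19 for number 2.

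The size of the excess depended on how length was taken into account. With deposited counts divided by deposited gene length, the ratios were 17.6 and 12.4 in the controls, against 25.05 and 11.2 in the CBX7 libraries, with a geometric mean of 15.7. Once the trend of each library with length and GC content had been removed, they were 17.7 and 14.8 in the controls, against 17.3 and 13.5 in the CBX7 libraries. This correction reduced the SD of the log2 ratio over the 4 libraries from 0.53 to 0.19, and it turned the group difference to -0.087 (exact permutation p = 0.667). CDK4 exceeded CDK6 both in TPM and in counts per gene length. The correction acts on each library's deviations from a gene's mean over the 4 libraries. It therefore left the geometric mean at 15.7, and the corrected scale is no separate result on the order of the kinases.

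**Figure D2:**
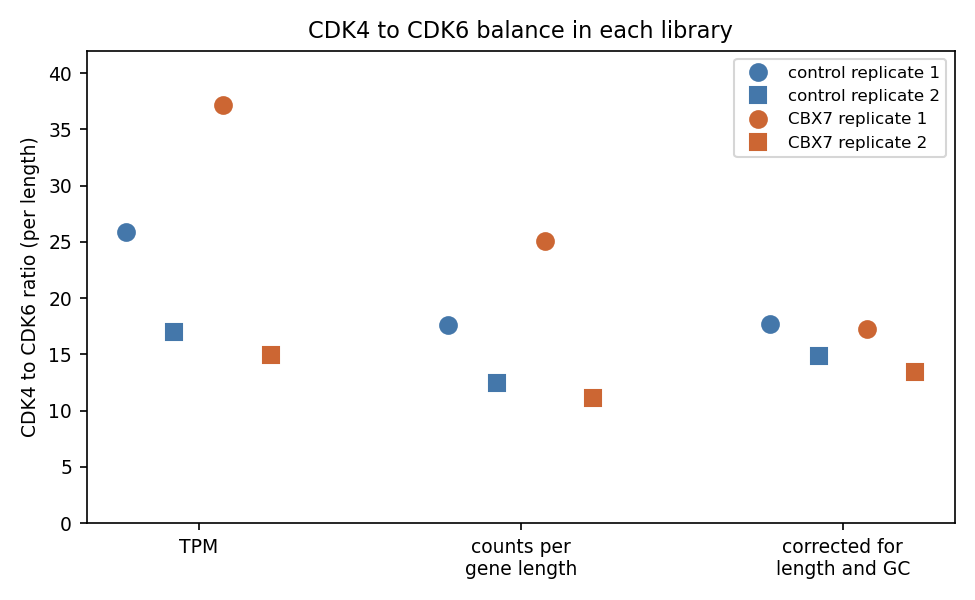
Ratio of CDK4 to CDK6 (vertical axis, from 0) in each library from deposited TPM, from counts per gene length and after correction for length and GC content, with colours for group and shapes for replicate number. The TPM ratios run from 14.9 to 37.2 with CBX7 replicate 1 highest, and the corrected ratios from 13.5 to 17.7.

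CCNE1, encoding cyclin E1 (ENSG00000105173, chromosome 19, 29811898 to 29824308, plus strand), had 7.31 and 7.19 TPM in the controls, against 9.15 and 9.36 TPM in the CBX7 libraries. Both CBX7 values lay above both control values. CCNE2, encoding the related cyclin E2 (ENSG00000175305, chromosome 8, 94879770 to 94896678, minus strand), had 16.6 and 20.6 TPM in the controls, against 12.4 and 20.78 TPM in the CBX7 libraries, so its groups overlapped. CCNE2 was the more abundant E-type cyclin in every library. The ratio of CCNE2 to CCNE1 TPM was 2.26 and 2.87 in the controls, against 1.36 and 2.22 in the CBX7 libraries, a log2 difference of -0.55 (SDs 0.24 and 0.50, n = 2 each; exact two-sided permutation p = 0.33, the smallest possible).

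CDK2, the kinase partner of cyclins E and A (ENSG00000123374, chromosome 12, 55966769 to 55972784, plus strand), had 95.6 and 101 TPM in the controls, against 76.6 and 98.4 TPM in the CBX7 libraries. CCNA2, encoding cyclin A2 of S and G2 phase (ENSG00000145386, chromosome 4, 121816444 to 121823933, minus strand), had 75.1 and 80.7 TPM in the controls, against 62.6 and 82.0 TPM in the CBX7 libraries. In both genes CBX7 replicate 1 was the lowest library. CDK2 exceeded CCNA2 by a similar factor in every library, with ratios of 1.27, 1.25, 1.22 and 1.20.

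CCNB1, encoding the mitotic cyclin B1 (ENSG00000134057, chromosome 5, 69167010 to 69178245, plus strand), had 287 and 292 TPM in the controls, against 269 and 311 TPM in the CBX7 libraries. The groups overlapped on this scale. CCNB1 transcript exceeded that of its kinase CDK1 by a ratio of 2.04 and 2.05 in the controls, against 2.32 and 2.22 in the CBX7 libraries (log2 difference 0.15, exact permutation p = 0.33). Of 9 such ratios between members or with CDK1, computed in TPM, 5 reached this smallest possible p, which is 0.6 after Benjamini-Hochberg adjustment over the 9. In counts per gene length 1 of the 9 did, CCNB1 to CDK1, and CCNE2 to CCNE1 had an exact permutation p = 0.667. After the length and GC correction 3 of the 9 did: CCND1 to CCND3, CCNE2 to CCNE1 (log2 difference -0.39) and CCNB1 to CDK1. By the design of the test, a ratio with no group effect reaches this p with a probability of 0.33. The 9 ratios share genes and are not independent.

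In the order of mean TPM over the 4 libraries, CDK4 at 295 stood first and CCNB1 at 290 followed, and CDK4 exceeded CCNB1 in only 2 of 4 libraries. These neighbours did not differ beyond their spread. CCND1 at 214 came next, below CCNB1 in 4 of 4 libraries and with no overlap of their ranges. CDK2 at 92.9 and CCNA2 at 75.1 had overlapping ranges, although CDK2 was higher within each library. CCND3 at 55.1 was separate from both neighbours. CCNE2 at 17.6, CDK6 at 14.0 and CCNE1 at 8.25 overlapped in turn, with CDK6 above CCNE1 in 3 of 4 libraries, and CCND2 was last. The order of the first 3 genes depended on the scale. In counts per gene length CCND1 stood first in 3 of 4 libraries, above CDK4 by ratios of 1.06 and 1.17 in the controls, against 0.835 and 1.21 in the CBX7 libraries, and above CCNB1 in 3 of 4. After the length and GC correction CCND1 was again first in 3 of 4 libraries and lay above CCNB1 in 4 of 4. The other tested members came in the same order in TPM and in counts per gene length. The correction leaves mean levels over the 4 libraries nearly unchanged, so its order of means is no separate result.

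Promoter sequences of RefSeq on GRCh38.p14, 250 bases before to 50 bases after a start site, were found for 6 of the 10 genes, with 3 starts for CCND3 and 2 for CDK6. Those of the G1 kinases CDK4 and CDK6 are shown because these 2 genes lie far apart in level, and those of CCNA2 and CCNB1 because their transcripts belong to the later phases. Sequences are given 5′ to 3′ on the gene's strand, at chr12:57752261-57752560 (minus strand) for CDK4, chr7:92836524-92836823 (minus) for CDK6, chr4:121823834-121824133 (minus) for CCNA2 and chr5:69166900-69167199 (plus) for CCNB1. Capitals mark the E-box CACGTG, the CCAAT box (CCAAT) and the CHR element of cell cycle genes (spelled TTTGAA, its variant CTTGAA, its variant TTTAAA or its variant TTCGAA), each searched on both strands.
CDK4: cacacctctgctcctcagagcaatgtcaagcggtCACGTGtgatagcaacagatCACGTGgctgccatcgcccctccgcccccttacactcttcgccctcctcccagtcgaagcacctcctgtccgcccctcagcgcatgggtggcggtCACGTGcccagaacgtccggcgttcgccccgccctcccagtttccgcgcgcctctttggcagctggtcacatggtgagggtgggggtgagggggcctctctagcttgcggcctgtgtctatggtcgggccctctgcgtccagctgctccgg
CDK6: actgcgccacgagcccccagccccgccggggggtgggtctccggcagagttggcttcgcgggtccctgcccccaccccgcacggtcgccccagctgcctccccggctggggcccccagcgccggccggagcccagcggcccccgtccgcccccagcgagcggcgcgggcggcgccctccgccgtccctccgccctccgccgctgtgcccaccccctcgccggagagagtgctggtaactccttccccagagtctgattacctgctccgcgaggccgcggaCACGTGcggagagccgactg
CCNA2: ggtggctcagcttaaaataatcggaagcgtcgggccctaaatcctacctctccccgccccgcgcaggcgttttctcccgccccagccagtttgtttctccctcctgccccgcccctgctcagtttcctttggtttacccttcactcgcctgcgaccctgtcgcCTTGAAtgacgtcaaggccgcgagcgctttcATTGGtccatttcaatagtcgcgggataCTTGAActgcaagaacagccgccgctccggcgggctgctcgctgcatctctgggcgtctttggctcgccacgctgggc
CCNB1: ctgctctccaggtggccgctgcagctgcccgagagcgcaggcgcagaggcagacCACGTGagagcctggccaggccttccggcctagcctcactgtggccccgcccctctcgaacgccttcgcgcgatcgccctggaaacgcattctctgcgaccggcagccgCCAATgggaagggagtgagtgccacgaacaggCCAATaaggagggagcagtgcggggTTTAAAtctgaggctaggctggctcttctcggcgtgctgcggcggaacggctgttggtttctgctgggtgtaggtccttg

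The CDK4 promoter held 3 E-boxes and the CDK6 promoter shown 1, while the other CDK6 start held 0 E-boxes and 29 CpG dinucleotides, and 7.26% of all 35116 promoters in the table held at least 1. The CCNB1 promoter held 1 E-box, 2 CCAAT boxes and 1 CHR spelling, and the CCNA2 promoter 1 CCAAT box and 2 CHR spellings. These elements were not limited to the genes of the later phases, since the promoter of the G1 and S phase gene CCNE1 held 1 CHR spelling and 2 of the 3 CCND3 starts held 1 CCAAT box each. CCAAT was present in 34.6% and a CHR spelling in 32.2% of all promoters. The spelling TTTGAA alone, searched first, was in none of the members' promoters found and in 15.2% of all. The other spellings were added after that. The E2F site, spelled TTTCCCGC, TTTCGCGC, TTTGCCGC or TTTGGCGC, was in 3.31% of all promoters and in none of the members' promoters found. The promoters shown, of CDK4, CDK6, CCNA2 and CCNB1, held 23, 37, 26 and 24 CpG dinucleotides, against a median of 14 over all promoters.

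No cyclin or CDK gene changed with CBX7 overexpression by the adjusted threshold. Of the 9 genes tested, 0 had an adjusted p under 0.05 in the quasi-likelihood test of edgeR, Benjamini-Hochberg adjusted, where 3 of all 14862 genes (0.0202%) did, and 0 had an unadjusted p under 0.05, where 4.74% of all genes did. DESeq2's Wald test also called 0 of them. The log2 fold changes ran from -0.14 to 0.36 with a median of 0.036, beside a median of 0.00170 over all genes tested. In normalised CPM, 2 of 9 genes had both CBX7 values above both control values, CCNE1 and CCNB1, against 15.4% of all genes, and 0 had both below, against 14.8%. In TPM, the 2 genes above were CCNE1 and CDK4, against 12.2% of all genes, and 0 were below, against 17.4%. With the length and GC correction, 5 of 9 lay above, CCND1, CDK4, CCNE1, CCNA2 and CCNB1, against 18.3% of all genes, and 0 below, against 20.8%. The corrected log2 fold changes ran from -0.096 to 0.31 with a median of 0.11, beside -0.0045 over all genes, and 0 of the 9 had an unadjusted p under 0.05, where 7.91% of all genes did (smallest adjusted p 0.722 in the quasi-likelihood test of edgeR).

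Fold changes were taken from normalised CPM, which compares a gene with itself across libraries and not with other genes. CCNE1 had the largest value. It had 8.13 and 8.14 CPM in the controls, against 11.97 and 8.91 CPM in the CBX7 libraries, with a log2 fold change of 0.36 (SE 0.20, 95% interval -0.13 to 0.85, adjusted p = 0.951 in the quasi-likelihood test of edgeR). These levels rest on 171 to 289 counts a library. The controls were nearly equal, and most of the difference came from CBX7 replicate 1. CCNE1 was above control in both pairs of equal replicate number, by 0.56 and 0.13 on the log2 scale, and by 0.46 and 0.14 after the length and GC correction. The corrected log2 fold change of CCNE1 was 0.31.

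CDK4 had 265 and 255 CPM in the controls, against 334 and 258 CPM in the CBX7 libraries (log2 fold change 0.19, SE 0.16, 95% interval -0.22 to 0.60, adjusted p = 0.951 in the quasi-likelihood test of edgeR). CBX7 replicate 2 lay between the controls on this scale, and most of the difference came from CBX7 replicate 1. By replicate number the log2 ratio was 0.33 and 0.022. Corrected for length and GC content, CDK4 had 266 and 264 CPM in the controls, against 308 and 269 CPM in the CBX7 libraries, so both CBX7 values lay above both control values, and the log2 fold change was 0.12 (SE 0.091). CDK6 differed in sign between replicates, with 93.8 and 128 CPM in the controls, against 82.9 and 144 CPM in the CBX7 libraries, and log2 ratios of -0.18 for number 1 and 0.18 for number 2. Its log2 fold change over all libraries was 0.036 (SE 0.30, 95% interval -0.70 to 0.78, adjusted p = 0.985), the widest interval of the 9 genes. After the length and GC correction both ratios of CDK6 were positive, at 0.24 and 0.16, and the log2 fold change was 0.20 (SE 0.11, adjusted p = 0.751 in the quasi-likelihood test of edgeR).

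**Figure D3:**
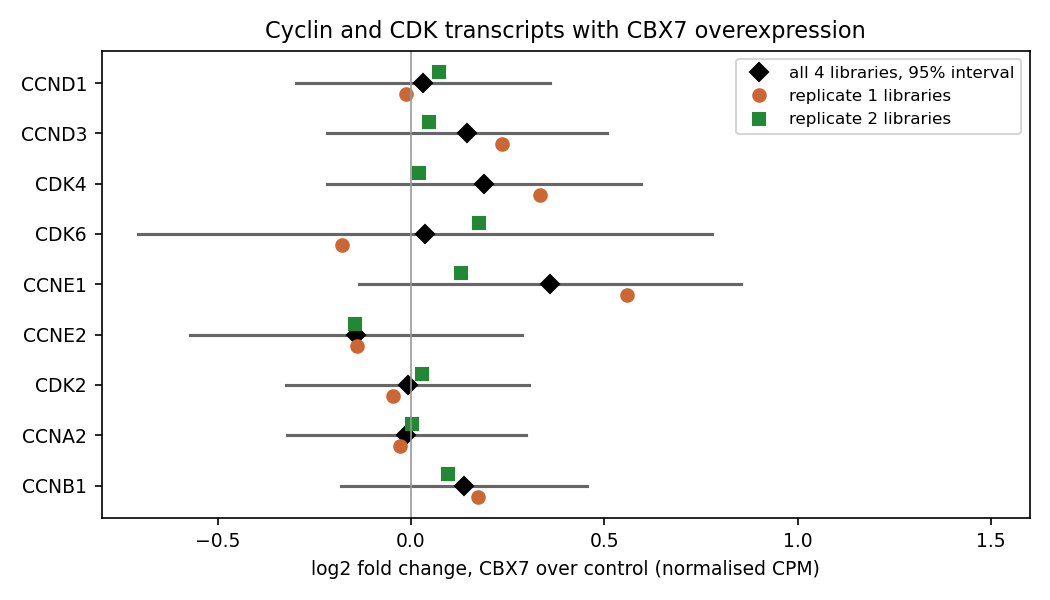
Log2 fold change of CBX7-overexpressing over control cells in normalised CPM (horizontal axis) for 9 genes, with black diamonds and lines for the estimate from all 4 libraries and its 95% interval, orange circles for the replicate 1 libraries and green squares for the replicate 2 libraries. Every interval includes 0, and the CDK6 values by replicate lie on opposite sides of 0, at -0.18 and 0.18.

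Of the D-type cyclins, CCND1 had 649 and 689 CPM in the controls, against 643 and 724 CPM in the CBX7 libraries (log2 fold change 0.032, 95% interval -0.30 to 0.36). CCND3 had 74.3 and 71.6 CPM in the controls, against 87.4 and 73.9 CPM in the CBX7 libraries (log2 fold change 0.15, 95% interval -0.22 to 0.51). Neither passed the test, and the groups overlapped in both. The CCND1 value depended on the scale. It was negative in TPM, at -0.098 with a pseudocount of 1 where the median of all genes lay at -0.081, and 0.11 (SE 0.070) after the length and GC correction. The corrected CCND1 values were 644 and 658 CPM in the controls, against 705 and 697 CPM in the CBX7 libraries, and did not overlap. Without CBX7 replicate 1 the CCND1 value was 0.12 and without CBX7 replicate 2 it was -0.056. The CCND3 value was -0.013 after the length and GC correction and 0.025 without CBX7 replicate 1.

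CDK2 and CCNA2, of S phase, differed little in normalised CPM. CDK2 had 135 and 138 CPM in the controls, against 131 and 140 CPM in the CBX7 libraries (log2 fold change -0.0085, 95% interval -0.32 to 0.31). CCNA2 had 150 and 154 CPM in the controls, against 147 and 155 CPM in the CBX7 libraries (log2 fold change -0.012, 95% interval -0.32 to 0.30). A change of either sign within these bounds was not detectable with 2 libraries a group. In TPM with a pseudocount of 1, where the median of all genes lay at -0.081, the value was -0.18 for CDK2 and -0.12 for CCNA2, and after the length and GC correction -0.051 and 0.031. Without CBX7 replicate 1 the values of CDK2 and CCNA2 were 0.044 and 0.026. The corrected CCNA2 values lay close together and did not overlap, at 149 and 151 CPM in the controls, against 153 and 153 CPM in the CBX7 libraries. CCNB1 had 288 and 276 CPM in the controls, against 325 and 295 CPM in the CBX7 libraries (log2 fold change 0.14, SE 0.13, adjusted p = 0.951 in the quasi-likelihood test of edgeR), and this value turned to about 0 in TPM (-0.00339 with a pseudocount of 1). It was 0.14 after the length and GC correction, 0.071 without CBX7 replicate 1 and 0.20 without CBX7 replicate 2. CCNE2 was the one member with a negative log2 ratio of the same size in both pairs, -0.14 and -0.14, from 31.6 and 38.4 CPM in the controls, against 28.7 and 34.7 CPM in the CBX7 libraries (log2 fold change -0.14, SE 0.17, adjusted p = 0.951 in the same test). After the length and GC correction these ratios were -0.049 and -0.14, with a log2 fold change of -0.096, and without CBX7 replicate 1 the fold change was -0.0025.

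Whether CDK4, CCND3, CCNE1 and CDK6 passed the test depended on a single library. When CBX7 replicate 2 was left out, so that CBX7 replicate 1 alone stood against both controls, 4 of 9 members passed an adjusted p of 0.05 in the quasi-likelihood test of edgeR: CDK4 (log2 fold change 0.36, adjusted p = 0.00114), CCND3 (0.26, 0.0464) and CCNE1 (0.56, 0.0052) were higher and CDK6 (-0.42, 0.000947) was lower. In that comparison 5474 of all 14862 genes passed. When CBX7 replicate 1 was left out instead, CDK6 was the 1 member that passed, with the opposite sign (0.39, adjusted p = 0.0184), and 388 genes passed in all. CDK4 was then at -0.00231, and CCNE1 at 0.14. A single library in a group is assumed in this test to vary like the other libraries.

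The difference between libraries of the same group followed gene length among the members. From replicate 2 to replicate 1, CDK6 (11612 bases) had log2 ratios of -0.80 with CBX7 and -0.44 in control cells, whereas CDK4 (1865 bases) had 0.37 and 0.058. CCND1 (4307 bases) had -0.17 and -0.086, and CCNE2 (2724 bases) -0.28 and -0.28. Over the 9 members, Spearman's rho of this ratio with gene length was -0.65 with CBX7 and -0.70 in control cells, as a description of genes that share the same 4 libraries. Between CBX7 replicate 1 and control replicate 1 it was -0.52, and between CBX7 replicate 2 and control replicate 2 it was 0.18. The part of RNA quality or library preparation in this trend was not tested.

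**Figure D4:**
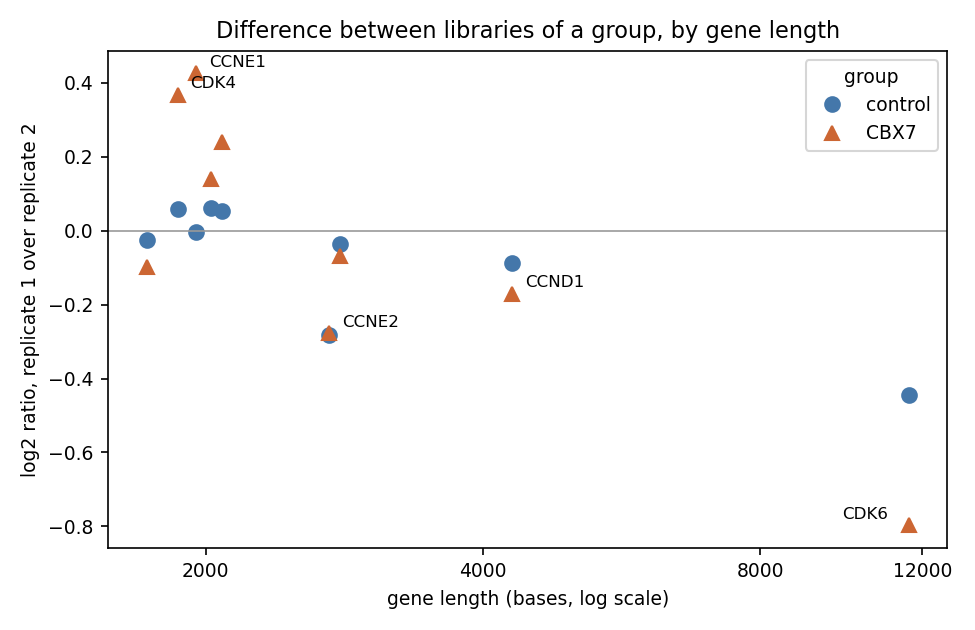
Log2 ratio of replicate 1 to replicate 2 in normalised CPM (vertical axis) against gene length in bases (horizontal axis, log scale) for 9 genes, with blue circles for control and orange triangles for CBX7-overexpressing cells. CDK6, the longest, lies lowest in both groups, at -0.44 and -0.80.

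The pattern of CDK6 over the 4 libraries was shared with other long genes. Of the 11076 genes compared, each with a mean of 100 counts or more, the 5 with the smallest Euclidean distance to CDK6 in centred log2 CPM over the 4 libraries were SLC7A11, NIPAL1, PTPN13, SLIT2 and PPARA, at distances of 0.0456 to 0.113. Their lengths were 9645, 5302, 8573, 5132 and 9965 bases, and the median length of the genes compared was 3056 bases. SLC7A11, which encodes the cystine transporter subunit xCT, had 72.8 and 95.2 CPM in the controls, against 64.1 and 109 CPM in the CBX7 libraries. The genes were chosen for this pattern, so their order of libraries is a description.

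The surrounding cell cycle genes also had no call at the adjusted threshold. Of 74 genes in 8 lists of the pathway, 72 were tested and 0 had an adjusted p under 0.05 in the quasi-likelihood test of edgeR, Benjamini-Hochberg adjusted. DESeq2's Wald test called 0 of them. At an unadjusted p under 0.05, 1 was higher and 0 were lower, where 4.74% of all genes tested had such a p in either direction. Both CBX7 libraries lay above both controls for 13 of the 72 and below for 8, where over all genes tested 15.4% lay above and 14.8% below. With the length and GC correction, 15 of the 72 lay above and 19 below, where over all genes 18.3% lay above and 20.8% below, and at an unadjusted p under 0.05 there were 2 higher and 2 lower, where 7.91% of all genes had such a p. The counts per list given next are from normalised CPM before that correction and are to be read against the shares of 15.4% and 14.8%. The median log2 fold change of the 72 genes was 0.026 in normalised CPM and 0.0031 after the length and GC correction. On the corrected scale the members had a median of 0.11, with 5 of 9 above and 0 below.

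That 1 gene was CDKN1A, which encodes the CDK inhibitor p21. It had 22.6 and 21.5 CPM in the controls, against 28.7 and 30.6 CPM in the CBX7 libraries, so both CBX7 libraries lay above both controls (log2 fold change 0.43, SE 0.13, adjusted p = 0.853 in the quasi-likelihood test of edgeR). Leaving out CBX7 replicate 1 gave a log2 fold change of 0.48, and leaving out CBX7 replicate 2 gave 0.38. Without control replicate 1 the value was 0.46 and without control replicate 2 it was 0.39. Over the 11 alternatives with all libraries the adjusted p was not under 0.05. The smallest was 0.149 in the quasi-likelihood test of edgeR, with the replicate block and the length and GC correction together. In the same test it was 0.201 with the block alone and 0.578 with the correction alone. By replicate number the log2 ratio of CDKN1A was 0.35 and 0.51, and 0.19 and 0.48 after that correction. CDKN1B, encoding the inhibitor p27, had 42.6 and 44.5 CPM in the controls, against 35.5 and 38.7 CPM in the CBX7 libraries (log2 fold change -0.23, SE 0.13, adjusted p = 0.951), and it was -0.30 after the length and GC correction and passed without CBX7 replicate 2 (-0.29, adjusted p = 0.0367). Of the 7 CDK inhibitors, 2 had both CBX7 libraries above both controls and 1, CDKN1B, had them below, with a median of 0.14.

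Among 8 other cell cycle cyclins and CDKs tested, the median was 0.053, with 1 above and 1 below. CDK1, the mitotic kinase, had 172 and 171 CPM in the controls, against 171 and 166 CPM in the CBX7 libraries (log2 fold change -0.022, SE 0.12, and -0.017 after the length and GC correction). CCNB2, encoding cyclin B2, had 79.96 and 79.8 CPM in the controls, against 90.7 and 79.3 CPM in the CBX7 libraries, with CBX7 replicate 1 highest and the other libraries close together. Among 21 tested cyclins and CDKs with roles in transcription and elsewhere, the median was -0.089, with 3 above and 4 below. The lowest of these was CCNG2, encoding an atypical cyclin linked to cell cycle exit, with 25.5 and 24.96 CPM in the controls, against 15.2 and 22.6 CPM in the CBX7 libraries (log2 fold change -0.42, SE 0.21, adjusted p = 0.951 in the quasi-likelihood test of edgeR). Its value was -0.44 after the length and GC correction, -0.16 without CBX7 replicate 1 and -0.73 without CBX7 replicate 2 (adjusted p = 1.56e-06).

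The 13 RB and E2F genes had a median of -0.077, with 4 above and 0 below. RB1, the retinoblastoma gene that CDK4 and CDK6 act on, had 96.7 and 112 CPM in the controls, against 69.4 and 114 CPM in the CBX7 libraries, so its groups overlapped. E2F2, an activator E2F, had 6.66 and 8.002 CPM in the controls, against 9.11 and 10.8 CPM in the CBX7 libraries (log2 fold change 0.44, SE 0.19, adjusted p = 0.951 in the quasi-likelihood test of edgeR). The E2F2 value was 0.45 after the length and GC correction and 0.22 in TPM with a pseudocount of 1. It was 0.57 without CBX7 replicate 1, 0.32 without CBX7 replicate 2, 0.32 without control replicate 1 and 0.58 without control replicate 2. Of the proliferation markers, MKI67, a gene of 12716 bases, had 425 and 549 CPM in the controls, against 307 and 542 CPM in the CBX7 libraries. PCNA, the clamp of DNA replication, had 282 and 262 CPM in the controls, against 318 and 265 CPM in the CBX7 libraries. Both overlapped between groups, and in both CBX7 replicate 1 was the extreme library, lowest for the long MKI67 and highest for PCNA of 1359 bases. Without CBX7 replicate 2, RB1 (-0.59, adjusted p = 2.05e-06) and MKI67 (-0.67, adjusted p = 4.95e-10) passed the same test, and without CBX7 replicate 1 both were positive, at 0.13 and 0.16. With all libraries the log2 fold change moved from -0.20 to -0.042 for MKI67 after the length and GC correction, from -0.19 to -0.10 for RB1 and from 0.10 to 0.059 for PCNA.

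The other lists had medians of 0.038 over 5 kinases and phosphatases that act on CDKs, with 0 above and 1 below, of 0.049 over 9 genes of cyclin degradation, with 2 above and 0 below, and of 0.028 over 7 genes that drive cyclin D transcription, with 1 above and 1 below. CKS1B, a cofactor of p27 degradation of 779 bases, had 133 and 130 CPM in the controls, against 187 and 131 CPM in the CBX7 libraries, with CBX7 replicate 2 between the controls. It passed without CBX7 replicate 2 (0.51, adjusted p = 8.12e-06) and was at -0.000456 without CBX7 replicate 1. Corrected for length and GC content, its value was 0.19 and both CBX7 libraries lay above both controls.

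**Figure D5:**
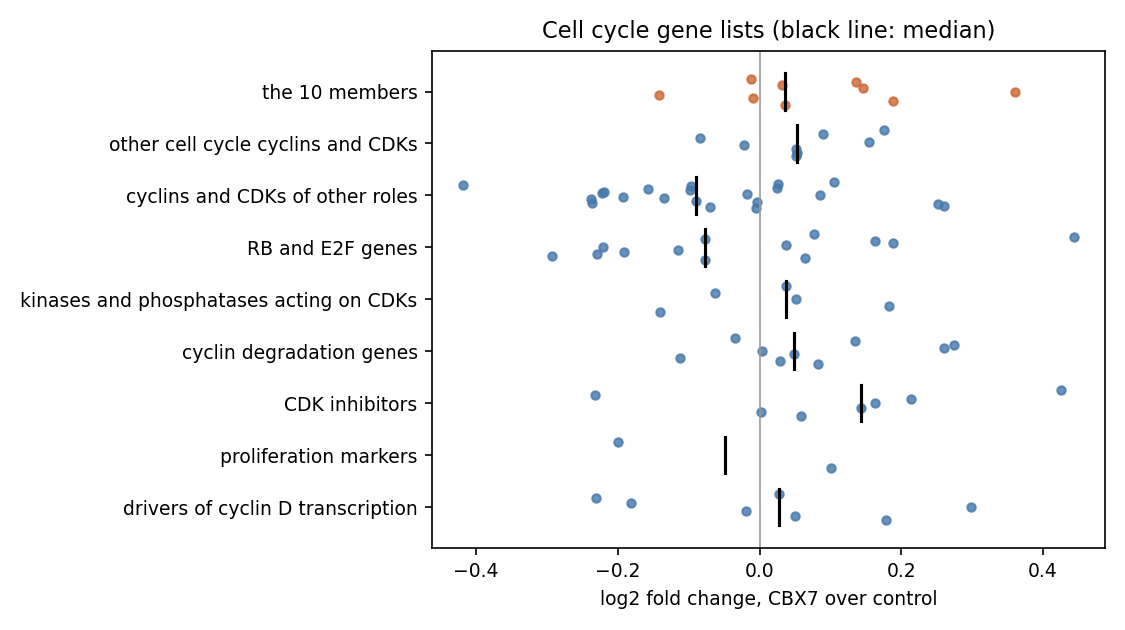
Log2 fold change of CBX7-overexpressing over control cells in normalised CPM (horizontal axis) for each tested gene of the members (9 of 10) and of 8 cell cycle lists, one point per gene, with a black line at each list's median. The points lie between -0.42 and 0.44 and the medians between -0.089 and 0.14.

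The counts of some members may include reads of neighbours. CDK4 overlaps TSPAN31, CDK2 overlaps PMEL, CCNA2 overlaps EXOSC9, CCND1 overlaps LTO1 and CCNE2 overlaps INTS8, each on the opposite strand, and the sources used here do not say whether strand was used in counting. CCND2 overlaps AC008012.1, annotated as protein-coding on the same strand, from which strand could not separate its reads, and the 7.03 counts of CCND2 in CBX7 replicate 1 are not whole. CCNE1 and CCNB1 overlap no annotated gene. Deposited counts were whole in all 4 libraries for CCND3, CDK6, CCNE1, CDK2 and CCNB1, and in 0 libraries for CDK4, CCNE2 and CCNA2.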

How the data were processed

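RNA-seq was performed on T24 cells, in 2 libraries each of control and CBX7-overexpressing cells, from random-primed cDNA on an Illumina HiSeq instrument. The authors deposited an estimated count (expected count, between 88.2% and 88.9% of values whole) and a TPM for every gene in every library, beside gene length, group means and columns of their own comparison (fold changes and p-values), which were not used. The submitters' processing notes name cutadapt 1.9.1, HISAT2 2.0.1, HTSeq 0.6.1, DESeq2 and hg19, with no role or order. The table holds no coordinates, and 96.5% of its identifiers were found in GENCODE 29 on GRCh38, which was used for positions and GC content.

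The groups were compared in edgeR 4.0.16 under R 4.3.3 (glmQLFit, glmQLFTest) on the deposited counts after rounding, filterByExpr and TMM scaling. Condition was the sole term, and p-values were adjusted by Benjamini-Hochberg over the 14862 genes. The SE was derived from the F statistic of each gene. Ratios and shares were tested by an exact permutation test over libraries. The length and GC correction fitted a spline of 4 degrees of freedom per library and property and used it as an offset. Library totals were 23626206 and 20800910 (control) and 25135488 and 21961166 (CBX7). Where no read was counted, up to 3 counts are allowed, or 0.119 to 0.144 CPM, for counting error only. The libraries of a group differed beyond sampling noise (chi-square per degree of freedom 6.06 in control and 54.7 in CBX7), so none was a copy.

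The genes named are the 10 members, CBX7, genes of the cell cycle and cell type marker lists, and the 5 genes most like CDK6. The members and lists were chosen with earlier results of these data known. Alternatives were DESeq2 1.42.0, its size factors, upper-quartile normalisation, no filter, 10 counts or more in all libraries, a replicate block, the newer quasi-likelihood method, the length and GC correction with and without the block, limma 3.58.1 on log2(TPM + 1) and log2(TPM + 0.1), and each replicate left out.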

Additional observations from a re-analysis of the deposited data

How the results depend on the processing

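Over 11 alternatives with all 4 libraries, 0 members passed the adjusted threshold (smallest adjusted p 0.320), and 88 of 99 log2 fold changes of members kept their sign. The number of all genes changed, 3 as reported, was 265 with no filter, 361 with the replicate block, 5 after the length and GC correction, 338 with both the block and the correction, 59 with DESeq2's Wald test, and 37 to 5474 when a replicate was left out. The number of members changed was then 0 to 4. The replicate numbers are not said to mark a shared batch. Deviations of libraries with the same number correlated at 0.31 over all genes tested and at 0.61 over genes with a mean of 100 counts or more, which hold all tested members, and the block turned CDK6 to -0.000139 and changed no member's call. Signs turned with the length and GC correction, without and with the block, for CCND3 (-0.0127 and -0.0126), CCNA2 (0.0306 and 0.0306) and E2F1 (-0.10 and -0.10). They turned in limma with pseudocounts of 1 and 0.1 TPM for CCND1 (-0.098 and -0.098), CDK6 (-0.10 and -0.12), CCNB1 (-0.00339 and -0.00342), CCNB2 (-0.038 and -0.039), E2F1 (-0.038 and -0.039) and PCNA (-0.019 and -0.019), where the median of all genes lay at -0.081 and -0.10. The cause was not tested.

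With each replicate left out, log2 fold changes ran from -0.056 to 0.12 for CCND1, -0.00231 to 0.36 for CDK4, -0.42 to 0.39 for CDK6, -0.29 to 0.00604 for CCNE2, -0.058 to 0.044 for CDK2, -0.046 to 0.026 for CCNA2, -0.00621 to 0.18 for CCNB2, -0.10 to 0.24 for E2F1, -0.59 to 0.13 for RB1, -0.031 to 0.23 for PCNA, -0.67 to 0.16 for MKI67 and -0.000456 to 0.51 for CKS1B. The log2 difference of the CDK4 to CDK6 ratio was -0.087 with the length and GC correction and ran from -0.49 to 0.83 with a replicate left out. The difference of the CCND1 share was 1.28 percentage points with that correction and ran from -3.53 to 0.54. CCNE1, CCND3 and CCNB1 kept a positive sign with each replicate left out, at 0.14 to 0.56, 0.025 to 0.26 and 0.071 to 0.20, and CCNG2 a negative one, at -0.73 to -0.16.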
